A study of Mus musculus with 5 samples.

Results

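The genes described here are 9 components and regulators of the complement system, C1qa, C1qb, C1qc, C3, C4b, Cfb, Serping1, Cd59a and C3ar1, taken by symbol from the 25655 gene symbols of the count table. All 9 were present, and all 9 passed the filter on low counts. Total RNA of the injured whole retina was sequenced 7 days after optic nerve crush (ONC), in which the nerve behind the eye is pinched and retinal ganglion cell axons are damaged. The mice were wildtype C57BL/6 of 8 to 10 weeks, and the study used both sexes. The 2 groups were 3 mice given the vehicle DMSO (replicates 1, 2 and 3) and 2 mice given Sorbinil, an inhibitor of aldose reductase, at 10 mg/kg intraperitoneally from the day before ONC and daily thereafter (replicates 1 and 3). Every retina compared here was injured, so the values show the difference between the treatments after ONC and not the response to ONC. The authors excluded Sorbinil replicate 2, which was not analysed here.

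Complement is a protein cascade of innate immunity that tags cells and debris for removal. C1q binds a target and starts the classical pathway, C4 and C2 form the first C3 convertase, and cleaved C3 opsonizes the target, while factor B forms the convertase that amplifies the response. In the retina and brain, microglia are the main source of C1q, glial cells make C3 and C4 after injury, and C1q and C3 mark synapses for engulfment by microglia.

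Counts on genes totalled between 56096541 and 90288552 per retina. Values are CPM, based on library sizes corrected by the TMM method. Sorbinil was set against DMSO in edgeR's quasi-likelihood test across 14992 genes, and a negative log2 fold change means lower with Sorbinil. Sorbinil replicate 1 stood apart from the other 4 retinas. Of the 14992 genes, 41.7% were below every DMSO retina in Sorbinil replicate 1, compared to 29.1% in Sorbinil replicate 3. The 11 rod markers summed to 59770 CPM in Sorbinil replicate 1 against 37644 to 46452 CPM in the DMSO retinas. Rlbp1, a retinoid-binding protein of Müller glia, was at 190.0 CPM there against 402 to 550 CPM. Fold changes are therefore also given without that retina where results rest on it. Whole retina mixes all cell types, so fewer cells of a type and less RNA per cell cannot be told apart.

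The 3 C1q chains are encoded side by side on the minus strand of chromosome 4 in GRCm39. C1qb lies at chr4:136606009-136613511, C1qc at chr4:136616466-136620376 and C1qa at chr4:136623223-136626161 (GENCODE vM39). Since the 3 neighbours varied together across retinas, the stretches before the start sites of C1qb and C1qc are shown, with that of C3, which varied differently. They are RefSeq start-site windows of GRCm38.p6 found by exact match in GRCm39, cut where the GENCODE gene begins, and written 5′ to 3′ on the gene's strand. Capitals mark a match to GAGGAAGT, the core bound by PU.1, a myeloid transcription factor, here read on the opposite strand.
C1qb, chr4:136613512-136613761: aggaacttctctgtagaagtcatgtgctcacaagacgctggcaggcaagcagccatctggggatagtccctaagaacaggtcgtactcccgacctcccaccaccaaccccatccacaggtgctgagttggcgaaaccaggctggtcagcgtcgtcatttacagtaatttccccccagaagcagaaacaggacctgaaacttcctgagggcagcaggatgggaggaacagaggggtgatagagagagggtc
C1qc, chr4:136620377-136620475: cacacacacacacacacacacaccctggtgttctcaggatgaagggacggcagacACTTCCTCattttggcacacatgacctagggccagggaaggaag
C3, chr17:57535156-57535386: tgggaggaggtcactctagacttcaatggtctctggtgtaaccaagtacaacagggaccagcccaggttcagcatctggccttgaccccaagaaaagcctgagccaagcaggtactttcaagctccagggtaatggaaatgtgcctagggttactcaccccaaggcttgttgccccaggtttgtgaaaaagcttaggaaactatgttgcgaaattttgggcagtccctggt
Both strands of the 250 bases before the RefSeq start were searched for GAGGAAGT and for 3 more motifs, the STAT site TTCNNNGAA, the interferon response core (GAAA and GAAA with 2 bases between) and the NF-kB site (GGG and TTTCC with 2 bases between). Windows were at hand for 5 of the 9 genes. The C1qc window held the PU.1 core 188 to 195 bases before the RefSeq start, which is 37 to 44 bases before the GENCODE gene where the printed stretch ends, a motif present in 2.44% of 32851 windows. The Cd59a window held the interferon response core, present in 2.98% of windows, and the C3ar1 window held the NF-kB site, present in 1.41%. The STAT site was in 0 of the 5 windows and in 7.02% of all windows. A match in such a window is a description of the letters and not of binding.

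On average, 8 of the 9 complement genes were lower in Sorbinil than in DMSO retinas, with Cd59a as the exception. The median log2 fold change of the 9 genes was -0.72, compared to -0.01 over all genes tested, of which 51% were below 0. None of the 9 differences passed the study's threshold, which asks for a change of 2-fold or more and a p-value, without adjustment, no higher than 0.1, and which 1.71% of all genes passed. At the p-value alone, 2 of the 9 genes, C1qb and C1qc, were lower, and 4.33% of all genes were (11.3% in either direction). No adjusted p-value was under 0.05 by edgeR for the 9 genes or for any gene tested (0% of 14992), and the 9 adjusted p-values were 0.758 to 0.761. At an unadjusted p-value under 0.05, 1 of the 9 genes, C1qb, was lower by edgeR, against 1.78% of all genes. The likelihood ratio test of edgeR and the Wald test of DESeq2 each placed 1 of the 9 genes, Cfb, past the study's threshold, where 291 and 248 of the 14992 genes were.

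**Figure D1:**
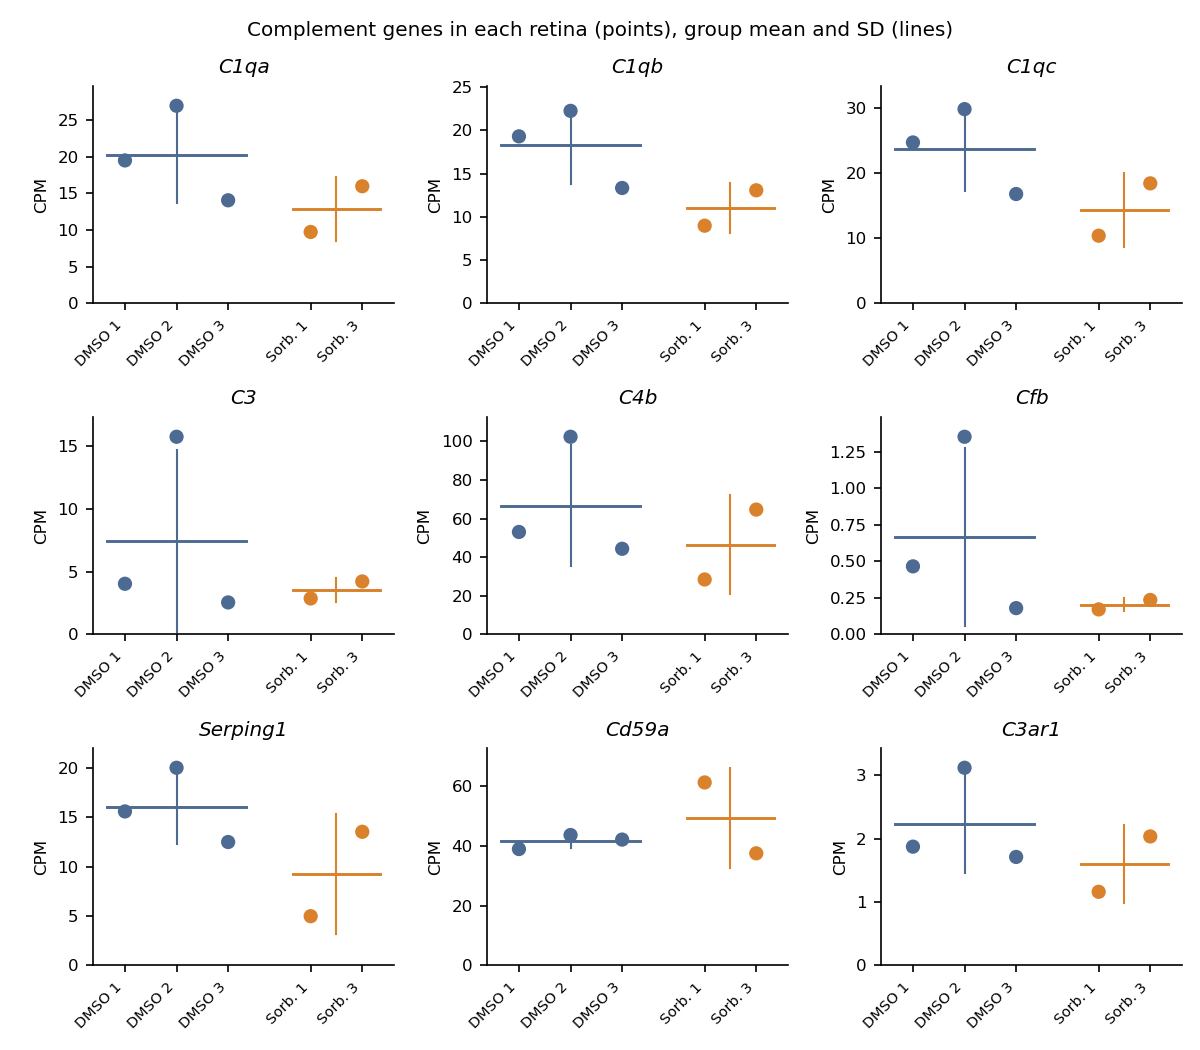
Expression in CPM (y axis, from 0) of each of the 9 complement genes in the 3 DMSO retinas (blue points) and the 2 Sorbinil retinas (orange points), with the group mean (horizontal line) and SD (vertical line). DMSO replicate 2 is the highest DMSO retina in all 9 panels, and C1qb is the only gene whose groups do not overlap.

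The retinas within each group differed widely. DMSO replicate 2 had the highest value of the DMSO group for 9 of the 9 genes, while 25.4% of all genes were highest in that retina. Sorbinil replicate 1 was below every DMSO retina for 7 of the 9 genes, within the DMSO range for C3, and above it for Cd59a. Across all genes, 41.7% lay below the DMSO range and 14.9% within it in that retina. Sorbinil replicate 3 lay within the DMSO range for 7 of the 9 genes and below it for C1qb and Cd59a. In Sorbinil replicate 3, 43.6% of all genes lay within the DMSO range and 29.1% below it. The groups did not overlap for 1 of the 9 genes, C1qb, with Sorbinil lower, compared to 10.5% of all genes, and for 0 with Sorbinil higher, compared to 12.8%. For a single gene, 3 retinas against 2 allow 10 groupings, so that the smallest p-value an exact permutation test can give is 0.1.

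The C1q chains, which assemble into the recognition molecule of the classical pathway, were highest in DMSO replicate 2 and lowest in Sorbinil replicate 1. C1qb was at 19.3, 22.2 and 13.3 CPM in DMSO replicates 1, 2 and 3, and at 8.98 and 13.1 CPM in Sorbinil replicates 1 and 3. Both Sorbinil retinas were thus below the DMSO retinas, although Sorbinil replicate 3 was only just under DMSO replicate 3. The mean was 18.3 ± 4.54 CPM (SD, n = 3) for DMSO and 11.02 ± 2.89 CPM (SD, n = 2) for Sorbinil. The log2 fold change was -0.73 (SE 0.284, 95% interval -1.43 to -0.03), with p = 0.0438 and an adjusted p of 0.758 by edgeR, and p = 0.2 by the two-sided exact permutation test.

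C1qc was at 24.7, 29.8 and 16.8 CPM in the DMSO retinas and at 10.4 and 18.4 CPM in the Sorbinil retinas. C1qa was at 19.5, 26.9 and 14.1 CPM in the DMSO retinas and at 9.74 and 16.0 CPM in the Sorbinil retinas. For both genes Sorbinil replicate 3 was above DMSO replicate 3, so the groups overlapped. C1qc had a log2 fold change of -0.72 (SE 0.342), with p = 0.0816 by edgeR and p = 0.3 by the exact permutation test. That of C1qa was -0.65 (SE 0.345, 95% interval -1.502 to 0.20), with p = 0.111 by edgeR and p = 0.3 by the exact permutation test.

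The 3 chains kept nearly the same proportions in every retina. The ratio of C1qa to C1qb in CPM was between 1.01 and 1.22, and that of C1qc to C1qb between 1.16 and 1.41. Sorbinil replicate 1 stood at 48.3%, 49.1% and 43.7% of the DMSO mean for C1qa, C1qb and C1qc, and Sorbinil replicate 3 at 79.2%, 71.4% and 77.5%. Without Sorbinil replicate 1, the log2 fold changes were -0.33, -0.48 and -0.36 for the same chains. Without DMSO replicate 2 they were -0.38, -0.57 and -0.53, and without both retinas they were -0.07, -0.32 and -0.17. None of these had a p-value of at most 0.1 by edgeR.

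C3 and Cfb had larger fold changes than the C1q chains, with larger errors. C3, the central component of the cascade, lies at chr17:57510964-57535155 on the minus strand. C3 was at 4.04, 15.8 and 2.56 CPM in DMSO replicates 1, 2 and 3, and at 2.87 and 4.23 CPM in the Sorbinil retinas. DMSO replicate 2 was 4.78 times the mean of the other 2 DMSO retinas, which lay on either side of Sorbinil replicate 1 and under Sorbinil replicate 3. The group means of 7.46 ± 7.24 CPM (SD, n = 3) and 3.55 ± 0.959 CPM (SD, n = 2) gave a log2 fold change of -1.07 (SE 0.814), with p = 0.238 by edgeR and p = 0.9 by the exact permutation test. Without DMSO replicate 2 the log2 fold change of C3 turned to 0.10, and without Sorbinil replicate 1 it was -0.81.

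Cfb encodes factor B, which binds C3b to form the alternative pathway convertase. Its counts were low, at 45, 108 and 10 in the DMSO retinas and at 9 and 16 in the Sorbinil retinas. The Poisson interval of the 9 counts in Sorbinil replicate 1 was 4.12 to 17.1 (exact, 95%, counting error only), which overlaps that of the 10 counts in DMSO replicate 3, 4.80 to 18.4. Cfb was at 0.465, 1.35 and 0.180 CPM in the DMSO retinas and at 0.171 and 0.236 CPM in the Sorbinil retinas. Sorbinil replicate 3 was thus above DMSO replicate 3. Its log2 fold change was -1.70 (SE 0.900), with p = 0.109 by edgeR and p = 0.3 by the exact permutation test, and it was -0.68 without DMSO replicate 2 and -1.501 without Sorbinil replicate 1. Cfb (chr17:35074852-35081559) shares 1704 exonic bases with Nelfe on the opposite strand, which had 577 to 1070 counts, and 2246 with Gm20547 on its own strand, which had 0 to 5 counts. The strand setting of the counting is not given in the sources used here, so reads of Cfb and Nelfe may not be told apart.

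C4b (chr17:34947354-34962912) encodes C4, which follows C1q in the classical pathway. C4b was at 53.1, 102 and 44.4 CPM in the DMSO retinas and at 28.5 and 64.7 CPM in the Sorbinil retinas. One Sorbinil retina was therefore the lowest of all 5 and the other the second highest. This gave a log2 fold change of -0.52 (SE 0.489), with p = 0.334 by edgeR and p = 0.6 by the exact permutation test. It was -0.03 without Sorbinil replicate 1, -0.06 without DMSO replicate 2 and 0.41 without both. C4b has a near-identical copy in the mouse genome, C4a, which is not among the symbols of the count table. How reads that match both copies were treated is not given in the sources used here.

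Serping1 encodes C1 inhibitor, the serum protease inhibitor that blocks the proteases bound to C1q. Serping1 (chr2:84595705-84620873) was at 15.6, 20.003 and 12.5 CPM in the DMSO retinas and at 4.98 and 13.5 CPM in the Sorbinil retinas. Sorbinil replicate 1 was at 31.1% of the DMSO mean, whereas Sorbinil replicate 3, at 84.4%, lay inside the DMSO range. The log2 fold change was -0.79 (SE 0.449), with p = 0.132 by edgeR and p = 0.2 by the exact permutation test, and it was -0.24 without Sorbinil replicate 1.

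Cd59a encodes a membrane-anchored inhibitor of the membrane attack complex, the terminal pore of complement. Cd59a (chr2:103926132-103947029, plus strand) was at 38.9, 43.6 and 42.0 CPM in the DMSO retinas and at 61.1 and 37.5 CPM in the Sorbinil retinas. The DMSO retinas agreed closely, and the 2 Sorbinil retinas lay on opposite sides of them. Cd59a had a log2 fold change of 0.25 (SE 0.219), with p = 0.302 by edgeR and p = 0.6 by the exact permutation test, and it turned to -0.14 without Sorbinil replicate 1. The similar gene Cd59b was at 0.198 to 0.403 CPM in the 5 retinas.

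C3ar1 encodes the receptor for C3a, the small fragment released from C3, and is expressed by microglia and macrophages. C3ar1 (chr6:122823393-122833122) was at 1.87, 3.11 and 1.71 CPM in the DMSO retinas and at 1.16 and 2.03 CPM in the Sorbinil retinas. As for C4b, Sorbinil replicate 1 was the lowest retina and Sorbinil replicate 3 the second highest. C3ar1 had a log2 fold change of -0.48 (SE 0.410), with p = 0.288 by edgeR and p = 0.6 by the exact permutation test, and it was -0.13 without Sorbinil replicate 1.

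**Figure D2:**
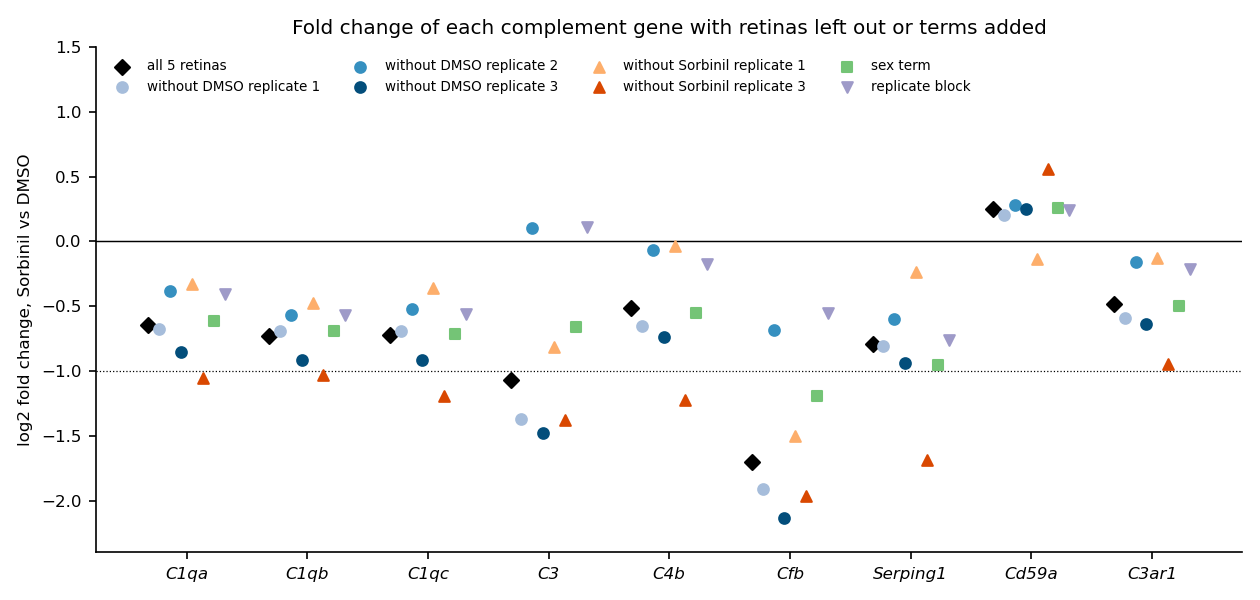
Log2 fold change of Sorbinil against DMSO (y axis) for each complement gene (x axis) with all 5 retinas (black diamonds), with 1 retina left out (circles for DMSO, triangles for Sorbinil), and with a term for sex (squares) or for the replicate number (inverted triangles); the dotted line is a 2-fold decrease. C3 moves from -1.07 to 0.10 without DMSO replicate 2, and Serping1 moves from -0.79 to -0.24 without Sorbinil replicate 1 and to -1.69 without Sorbinil replicate 3.

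With Sorbinil replicate 3 left out, 5 of the 9 genes, C1qa, C1qb, C1qc, C4b and Serping1, passed the study's threshold. In that fit the lone Sorbinil retina was assumed to vary like the DMSO retinas, and 2903 of 15266 genes passed. With Sorbinil replicate 1 left out, 0 of the 9 genes passed, and 220 of 15357 genes did. With DMSO replicate 3 left out, 2 of the 9 genes, C3 and Cfb, passed, and 298 of 14998 genes did.

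To compare levels between genes, CPM were divided by the length of all annotated exons of each gene. In the DMSO retinas C1qa had 12.5 ± 4.02 CPM per kb (SD, n = 3), C4b 10.99 ± 5.16, C1qc 8.32 ± 2.30, Cd59a 6.603 ± 0.379 and Serping1 5.28 ± 1.24 CPM per kb. C1qb had 2.93 ± 0.727, C3 1.44 ± 1.397, C3ar1 0.445 ± 0.153 and Cfb 0.195 ± 0.179 CPM per kb. The DMSO ranges of neighbours in this order overlapped, except for Serping1 and C1qb. Within single retinas, however, each gene was above the next in all 5 retinas, with 2 exceptions. C1qa was above C4b in 3 of the 5 retinas, and C1qc was above Cd59a in 3. The order depended on the length used, because the annotated exons of C1qb and Cd59a sum to 6246 and 6284 bases but their canonical transcripts have only 2532 and 1705 bases. Per kb of canonical transcript, Cd59a was the highest at 24.3 ± 1.398 CPM, C1qa had 18.5 ± 5.95, C1qc 12.8 ± 3.55 and C1qb 7.22 ± 1.79 CPM, while C3, C3ar1 and Cfb remained the lowest 3.

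A wider list of 48 complement genes was examined in the same way, of which 47 were in the table and 30 passed the filter on low counts. Of these 30 genes, 4 (13.3%) passed the study's threshold with Sorbinil lower, compared to 1.35% of all genes, and 0 passed with Sorbinil higher. At the p-value alone 5 were lower, namely C1ra, C2, Cfi, Clu and Thbd, each with an adjusted p of 0.758 by edgeR. The groups did not overlap for 8 of the 30 genes (26.7%), with Sorbinil lower, against 10.5% of all genes. Their median log2 fold change was -0.31, with 21 of 30 below 0. Without Sorbinil replicate 1, which left 1 Sorbinil retina, none of the 4 genes kept a 2-fold difference, and so none kept its call. The log2 fold changes were then -0.59 for C1ra, -0.51 for C2, -0.91 for Cfi, -0.87 for Thbd and -0.28 for Clu. The only genes of the wider list past the threshold in that fit were Cr2, higher with Sorbinil, and Masp2, lower, both on few counts. Cr2 had 28 counts in Sorbinil replicate 3 and 8 to 19 in the DMSO retinas, and Masp2 had 1 and 9 to 14. Without DMSO replicate 2, Cfi alone passed.

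**Figure D3:**
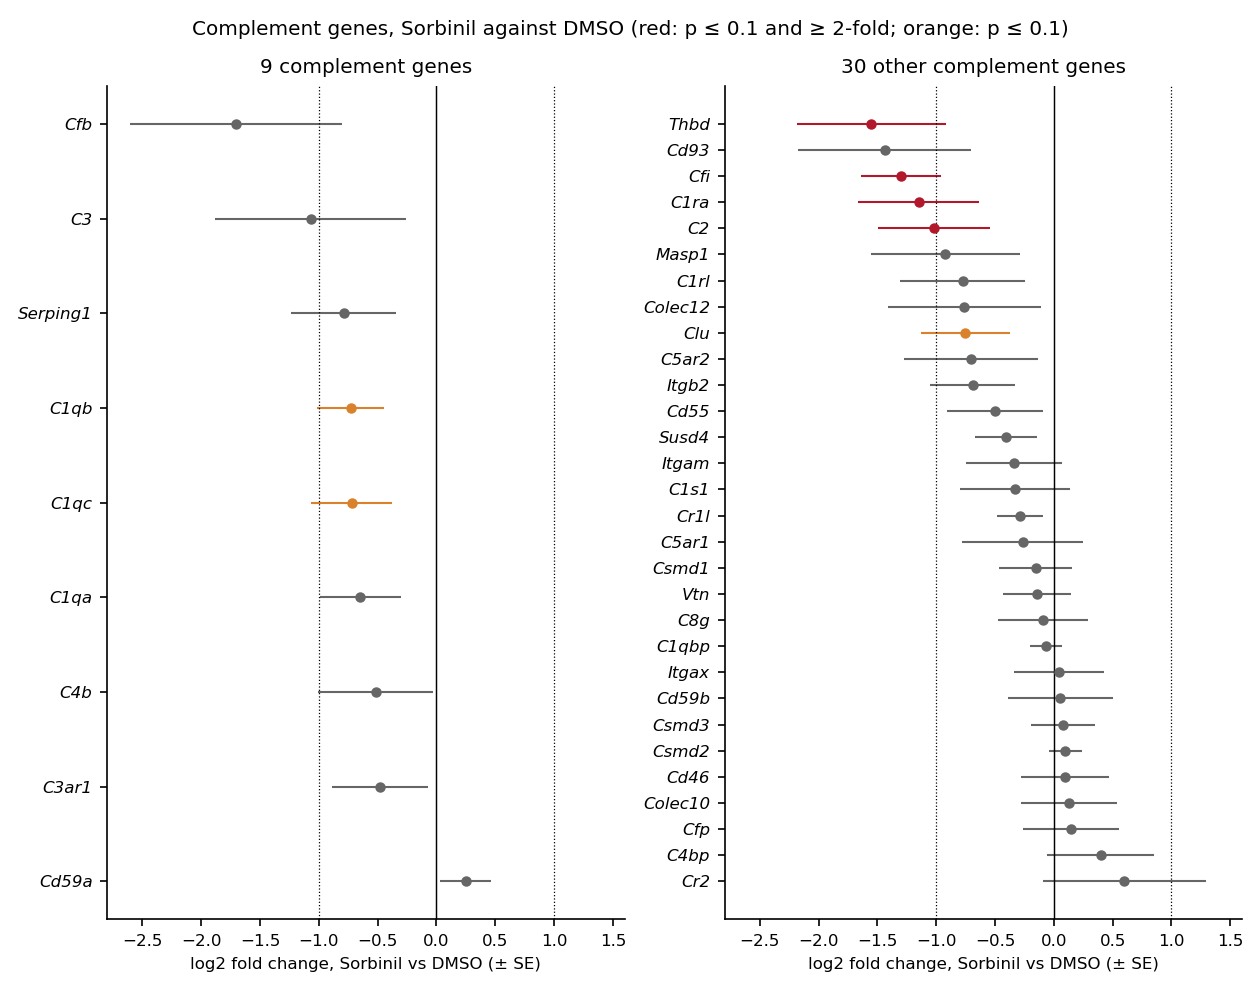
Log2 fold change of Sorbinil against DMSO (x axis, with SE bars, edgeR) for the 9 complement genes (left) and the 30 other complement genes tested (right); the dotted lines mark 2-fold changes. Red points, which are Thbd, Cfi, C1ra and C2, passed the study's threshold, and orange points had an unadjusted p-value of at most 0.1 only.

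Among the proteases, C1ra encodes C1r, which C1q activates, and C2 encodes the protease partner of C4. C1ra was at 3.247, 4.79 and 2.70 CPM in the DMSO retinas and at 0.837 and 2.37 CPM in the Sorbinil retinas, a log2 fold change of -1.15 (SE 0.514). C2 was at 0.683, 0.838 and 0.972 CPM in the DMSO retinas and at 0.228 and 0.575 CPM in the Sorbinil retinas, a log2 fold change of -1.02 (SE 0.477). Both Sorbinil retinas were below all DMSO retinas for both genes. The other classical and lectin pathway genes tested, C1s1, C1rl, Masp1, Colec10 and Colec12, had log2 fold changes from -0.92 to 0.12, and none had a p-value of at most 0.1.

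Among the regulators, Cfi encodes factor I, the protease that inactivates C3b and C4b. Cfi was at 3.38, 3.39 and 3.85 CPM in the DMSO retinas and at 0.989 and 1.87 CPM in the Sorbinil retinas. The DMSO retinas lay close together, without the high value of DMSO replicate 2 seen for C3 and Cfb, and both Sorbinil retinas were lower. Cfi had a log2 fold change of -1.30 (SE 0.338). Thbd encodes thrombomodulin, an endothelial surface protein that also promotes inactivation of C3b. Thbd was at 2.15, 2.56 and 1.46 CPM in the DMSO retinas and at 0.266 and 1.12 CPM in the Sorbinil retinas, a log2 fold change of -1.55 (SE 0.631).

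Clu encodes clusterin, a secreted chaperone that blocks the terminal complex, and was among the complement genes with the most counts. Clu was at 1488, 1185 and 1016 CPM in the DMSO retinas and at 453 and 1006 CPM in the Sorbinil retinas, a log2 fold change of -0.75 (SE 0.380). Sorbinil replicate 3 was only just under DMSO replicate 3. Vtn, which encodes vitronectin, another inhibitor of the terminal complex, was at 1115, 1223 and 1382 CPM in the DMSO retinas and at 1450 and 793 CPM in the Sorbinil retinas, a log2 fold change of -0.14 (SE 0.291). C1qbp, the gene of a mitochondrial protein that binds the heads of C1q, was at 34.1 to 35.9 CPM in the DMSO retinas and at 37.3 and 29.9 CPM in the Sorbinil retinas. For these last 2 genes the Sorbinil retinas lay on either side of the DMSO range.

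None of the 7 receptors tested passed either threshold. Cd93, which encodes a receptor of endothelial and myeloid cells once described as a C1q receptor, had the largest change, with a log2 fold change of -1.44 (SE 0.737), and -0.71 without Sorbinil replicate 1. It passed the study's threshold with no filter, in the likelihood ratio and Wald tests, with the replicate block and without DMSO replicate 3 or Sorbinil replicate 3. Cr2, the gene of complement receptor 2, had a log2 fold change of 0.60 (SE 0.695). Itgam and Itgb2, which together encode complement receptor 3 of microglia, had log2 fold changes of -0.34 (SE 0.411) and -0.69 (SE 0.361). C5ar1 and C5ar2, which encode receptors of C5a, had log2 fold changes of -0.26 (SE 0.514) and -0.70 (SE 0.568). Of the 7 terminal pathway genes, C8g, which encodes a chain of C8, was the only one that passed the filter on low counts, with 20 to 34 counts per retina and a log2 fold change of -0.09 (SE 0.381). Hc, which encodes C5, had 0 or 1 counts per retina, C7 and C8a had 0 to 2, C8b had 4 to 14, and C6 and C9 had 0 in every retina, so a difference in these 6 genes was not detectable at this depth.

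Marker genes of some retinal cell types moved with the complement genes, while rod markers were highest in Sorbinil replicate 1. The 17 microglial markers had median log2 deviations from the DMSO mean of -0.00, 0.25 and -0.25 in the DMSO retinas and -0.88 and -0.09 in Sorbinil replicates 1 and 3. The 9 complement genes had medians of -0.08, 0.47, -0.46, -0.997 and -0.29 in the same retinas, so both lists ranked the 5 retinas alike. This order was not particular to microglia. The 12 markers of astrocytes and reactive glia gave it too, with medians of 0.08, 0.17, -0.40, -1.23 and -0.03. The lists of Müller glia, endothelium, pericytes, ganglion cells, amacrine and bipolar cells, pigment epithelium and rods ranked the retinas differently. In Sorbinil replicate 1, 16 of the 17 microglial markers were below every DMSO retina, as 41.7% of all genes were. All 10 Müller glia markers and all 8 ganglion cell markers were below every DMSO retina there too. In Sorbinil replicate 3, 3 of the 17 microglial markers were below every DMSO retina, against 29.1% of all genes. The summed microglial markers were at 193 to 276 CPM in the DMSO retinas and at 128 and 218 CPM in the Sorbinil retinas. Of the defining microglial genes, Aif1 was at 0.756 to 1.25 CPM in the DMSO retinas and 0.514 and 0.943 CPM in the Sorbinil retinas. P2ry12 was at 5.40 to 6.98 CPM and at 3.63 and 6.998 CPM, and Tmem119 at 5.38 to 7.02 CPM and at 3.46 and 5.57 CPM. None of the 17 markers passed the study's threshold, and 16 of 17 were below 0.

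**Figure D4:**
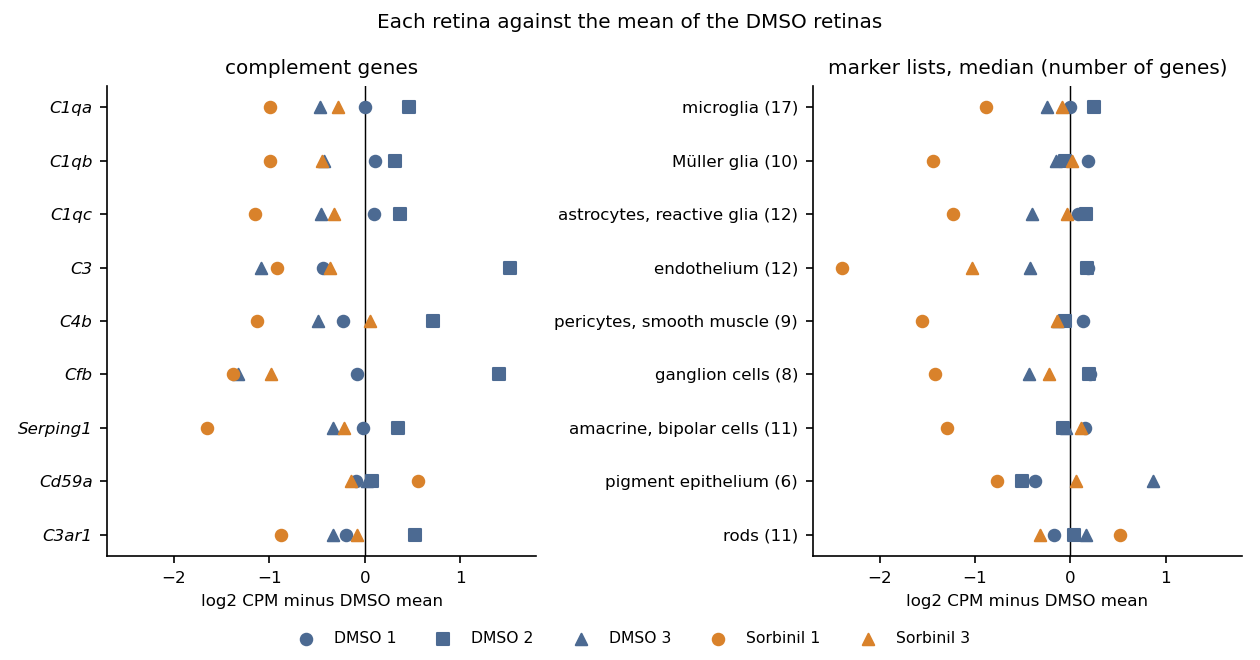
Log2 CPM of each retina minus the DMSO mean (x axis) for the 9 complement genes (left) and, as medians, for marker lists of retinal cell types with the number of genes in brackets (right); blue are DMSO and orange Sorbinil retinas, with circles for replicate 1, squares for 2 and triangles for 3. Among the 9 lists plotted, Sorbinil replicate 1 is the lowest retina for all but rods, where it is highest at 0.52.

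Sorbinil replicate 1 was also low for other cell types. Its median log2 deviation was -1.44 over 10 Müller glia markers, -1.23 over 12 markers of astrocytes and reactive glia, -1.42 over 8 ganglion cell markers and -2.395 over 12 endothelial markers, and it was 0.52 over 11 rod markers. In Sorbinil replicate 3 the same lists stood at 0.02, -0.03, -0.22, -1.03 and -0.32. Of 10 monocyte and macrophage markers only 3 passed the filter on low counts, with medians of -0.08 to 0.10 in the DMSO retinas and of 0.06 and 0.77 in Sorbinil replicates 1 and 3. Their summed CPM went the other way, at 9.88 to 13.6 in the DMSO retinas and at 3.16 and 9.50 in the Sorbinil retinas. Endothelial markers were low in both Sorbinil retinas, with 9 of 12 genes past the study's threshold, all lower, against 1.35% of all genes. Cldn5 was among them, at 4.99 to 7.87 CPM in the DMSO retinas and 1.37 and 3.06 CPM in the Sorbinil retinas. Pecam1, by contrast, was at 7.43 to 9.47 CPM and at 9.17 and 5.69 CPM. The summed endothelial markers were at 316 to 496 CPM in the DMSO retinas and at 164 and 414 CPM in the Sorbinil retinas. The part of these cell types in the complement values was not tested.

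Set against the microglial markers, C1q varied less. The 3 C1q chains together had 26.4, 28.6 and 22.9 CPM for each 100 CPM of summed microglial markers in the DMSO retinas, and 22.7 and 21.8 CPM in the Sorbinil retinas. C1q per microglial marker was therefore lower in both Sorbinil retinas than in any DMSO retina, by a margin smaller than the spread among the DMSO retinas. C3 had 1.68, 5.71 and 1.32 CPM for each 100 microglial CPM in the DMSO retinas and 2.24 and 1.94 CPM in the Sorbinil retinas, so that only DMSO replicate 2 stood out. C4b had 22.1, 37.1 and 23.0 CPM in the DMSO retinas and 22.2 and 29.7 CPM in the Sorbinil retinas.

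Complement genes were compared with each other across the 5 retinas. Likeness was measured as the root mean square difference of log2 CPM, each gene taken relative to its own mean, over the 5 retinas. This difference was 0.0861 to 0.110 between C1q chains, 0.140 to 0.225 between C3ar1 and the C1q chains, 0.169 between C4b and C3ar1, and 0.333 between C3 and Cfb, whereas it was 0.583 to 0.665 between C3 and the C1q chains. Among 13046 genes with a mean of at least 1 CPM, the 5 most like the mean of the C1q chains were Icam1, Utp14b, Entpd1, Gpr3 and Ctss, at 0.0351 to 0.0626. Ctss encodes cathepsin S, a lysosomal protease of microglia, and is the only gene of these 5 in the microglial list. Entpd1 encodes an ATP-hydrolysing ectoenzyme of microglia and vessels, and Icam1 encodes an adhesion molecule that leukocytes bind. Utp14b, the second most alike at 0.0439, was at 82.1 to 138 CPM in the DMSO retinas and at 52.1 and 89.9 CPM in the Sorbinil retinas. Utp14b and Gpr3 are in no marker list. The 5 genes most like C3 were Steap4, Sprr1a, Oas1a, Lcn2 and Cd38, at 0.225 to 0.404. Of these, Steap4 and Lcn2 are in the list of astrocytes and reactive glia, and the others are in no marker list. Lcn2, the gene of an iron-scavenging protein of reactive glia and neutrophils, was at 4.87, 27.1 and 4.64 CPM in the DMSO retinas and at 5.48 and 3.98 CPM in the Sorbinil retinas. Steap4, which encodes a metalloreductase, was at 1.49, 5.79 and 1.19 CPM and at 0.837 and 1.81 CPM. Both genes were picked for their likeness to C3 over these same retinas, so their high values in DMSO replicate 2 follow from that choice. S100a8, the only 1 of 6 neutrophil markers that passed the filter on low counts, was also highest in DMSO replicate 2, at 0.165, 0.701 and 0.0180 CPM in the DMSO retinas and at 0 and 0.0147 CPM in the Sorbinil retinas. The part of neutrophils in the C3 and Cfb values was not tested.

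The labels do not give the sex of the mice, and the study used both. Y-linked genes had 16268 to 17064 counts in DMSO replicates 1 and 2 and in Sorbinil replicate 1, and 2 and 4 counts in DMSO replicate 3 and Sorbinil replicate 3. Among the 3 male retinas, Sorbinil replicate 1 was below the mean of the 2 DMSO retinas for 8 of the 9 genes, by a log2 difference of -1.23 for C1qa, -1.20 for C1qb, -1.38 for C1qc and -1.82 for Serping1. Between the 2 female retinas, Sorbinil replicate 3 differed from DMSO replicate 3 by 0.18 for C1qa, -0.03 for C1qb, 0.13 for C1qc and 0.11 for Serping1. The female difference was 0.72 for C3, 0.54 for C4b, 0.34 for Cfb, 0.25 for C3ar1 and -0.17 for Cd59a. Each sex had 1 Sorbinil retina, so sex and the single retina cannot be told apart. With sex as a term in the edgeR fit, 1 of the 9 genes, C1qb, had a p-value of at most 0.1.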

How the data were processed

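Reads were trimmed and aligned to GRCm39 by the authors, using CLC Genomics Workbench (version 22, per the labels), and the counts per gene were deposited as whole numbers with no normalization. The annotation release, the strand setting and the treatment of multi-mapped reads are not given in the sources used here, and the labels and the paper name different library kits. Samples were grouped by the treatment in the labels, and columns were matched by name, with 0 left out. Reads carry no molecular identifiers, so intervals of counts cover counting error only. Totals were 90288552, 77411333 and 56096541 for DMSO replicates 1, 2 and 3 and 61577775 and 63496682 for Sorbinil replicates 1 and 3.

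The analysis used edgeR 4.0.16 (limma 3.58.1, R 4.3.3), with filterByExpr (minimum count 10), TMM scaling, glmQLFit and glmQLFTest with Benjamini-Hochberg adjustment over 14992 genes. A prior count of 2 was used for log2 CPM, and two-sided permutation tests used log2(CPM + 0.01). All 9 genes are named. Of the wider complement list, those named were past the threshold, at a p-value of at most 0.1, or among the 3 with the highest mean CPM, besides examples by role chosen after their values were seen. The 5 genes most alike to C1q and to C3 are named too. The 9 genes and all lists were chosen with earlier results of these data known. Positions and exon lengths came from GENCODE vM39, which held 23524 of the 25655 symbols. Of the listed genes, 2 are not reported here. The steps were tested on simulated data.

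Alternatives were other scalings, filters and thresholds, the likelihood ratio test, DESeq2 1.42.0, a replicate block, a sex term, and leaving out retinas.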

Additional observations from a re-analysis of the deposited data

Results flagged for a closer look

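For 8 of the 9 complement genes, the male Sorbinil retina and the female Sorbinil retina moved in opposite directions from the DMSO retinas of their own sex, as 60.3% of all 14992 genes did. The male minus female difference in the log2 change from DMSO to Sorbinil, taken from an edgeR fit added after seeing the data, was -1.44 for C1qa, -1.52 for C1qc, -1.99 for C4b, -1.95 for Serping1, -2.50 for C3, -2.77 for Cfb, -1.35 for C3ar1 and 0.74 for Cd59a. Male Sorbinil, female Sorbinil and female DMSO were 1 retina each, so whether the sexes differ was not tested, and sex and the single retina cannot be told apart.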

How the results depend on the processing

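Under every scaling, filter and test with all 5 retinas, C1qa, C1qb, C1qc, C4b, Cfb, Serping1 and C3ar1 kept a negative and Cd59a a positive log2 fold change, while C3 turned to 0.11 under the replicate block. The number of the 9 genes past the study's threshold was 0 with all retinas and 2 at 1.5-fold. It was 1 (Cfb) with no filter, the likelihood ratio test or the DESeq2 Wald test. It was 0 to 2 when 1 DMSO retina was left out. Of all genes tested, 1.71% passed with all retinas and 2.28% with no filter. In the likelihood ratio and Wald tests 1.94% and 1.65% passed, and without 1 DMSO retina 1.1% to 1.99% did. The number with a p-value of at most 0.1 was 2, and it was 1 with library-size scaling or a sex term, 4 with no filter, 5 with the likelihood ratio or Wald test, and 0 to 7 when 1 retina was left out. Of the 30 further genes, 4 passed, 2 with library-size scaling, 1 at p at most 0.05 (Cfi), 0 at an adjusted p under 0.05, and 1 to 13 when 1 retina was left out. Groups did not overlap for 1 gene, and for 0 with library-size scaling, which moved the median of all genes to -0.11. Without Sorbinil replicate 1 this rule asks only whether 1 retina lies outside the DMSO range. There 2 of the 9 genes (C1qb and Cd59a) were outside it, both below. Of all genes, 29.1% were below that range in Sorbinil replicate 3 and 43.6% within it. Cfb was not tested where at least 10 counts were required in every retina.

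When 1 retina was left out, C3 ran from -1.48 to 0.10, positive without DMSO replicate 2, and Cd59a from -0.14 to 0.56, negative without Sorbinil replicate 1. Without both, an alternative chosen after seeing the data, C3 was at 0.35, C4b at 0.41, C3ar1 at 0.18 and Cd59a at -0.11, with 1 of the 9 genes at a p-value of at most 0.1 (C4b, higher) and 2 of the wider list past the threshold (Cr2 and Masp2). The cause of these shifts was not tested. Deviations of same-numbered retinas from their group means had correlations of -0.243 and -0.125. The 2 Sorbinil retinas deviate from their own mean by equal and opposite amounts. These correlations therefore cannot show whether the replicate numbers pair the retinas. With the replicate block, 0 of the 9 genes passed, 0 had a p-value of at most 0.1, and 3 of the wider list passed. Depth limits Cfb, with 9 to 16 counts in 3 retinas, and the terminal pathway genes.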

Other observations

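Of the genes for recognition molecules of the lectin pathway, Mbl1, Mbl2, Fcna and Fcnb had 0 counts in every retina, Colec11 had 3 to 16 and Colec10 had 34 to 97. Of its proteases, Masp1 had 5 to 51 counts per retina, and Masp2, the protease that cleaves C4 and C2 in that pathway, had 9 to 14 counts per DMSO retina but 2 and 1 in the Sorbinil retinas. Cfd, which encodes the factor D protease of the alternative pathway, had 0 or 1 counts, and Cfp, which encodes properdin, had 26 to 55. Csmd1, Csmd2 and Csmd3, large neuronal proteins with complement control domains, had log2 fold changes of -0.15 (SE 0.309), 0.10 (SE 0.140) and 0.08 (SE 0.271).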
